A study of Homo sapiens with 3 samples.

Results

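The kynurenine pathway is the main route by which cells break down the amino acid tryptophan, and 7 of its enzymes are described here: KYNU, AADAT, AFMID, KMO, IDO1, TDO2 and QPRT. They were taken by gene symbol from the deposited matrix of read counts, in which they are 7 of 24424 genes, and all 7 had a row. The genes were chosen by pathway, with their read counts and ratios in these 3 libraries already known, so those values are given as a description. The series holds 3 RNA-seq libraries of A375SM, a metastatic subline of the human melanoma line A375. The shPRAME library came from cells that stably carried an shRNA against PRAME, a cancer-testis antigen and substrate receptor of a cullin-2 ubiquitin ligase. The shBAP1 library came from cells with an shRNA against BAP1, a nuclear deubiquitinase that acts on histone H2A, and the shEmpty library from the cells that the submitters used as control. The labels give the genotype of the shEmpty cells as WT, while the design text calls their vector a non-targeting shRNA. All 3 lines were made with a lentiviral vector that also carries GFP and were kept as populations of GFP-positive cells. Each hairpin has 1 line and 1 library, so no difference below has a replicate check, no p-value is given, and a property of 1 line or hairpin cannot be told apart from an effect of the target. Because the RNA is from bulk cultures, more cells that express a gene and more RNA per cell cannot be told apart.

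Tryptophan enters the pathway through a dioxygenase, either IDO1, which interferon gamma is known to induce in many tumours, or TDO2, which is best known from liver. Both make N-formylkynurenine, and the formamidase AFMID turns this into kynurenine. Kynurenine then has several fates: aminotransferases such as AADAT make kynurenic acid, the monooxygenase KMO makes 3-hydroxykynurenine, and the hydrolase KYNU cuts kynurenine to anthranilic acid or 3-hydroxykynurenine to 3-hydroxyanthranilic acid. HAAO converts 3-hydroxyanthranilic acid further, and QPRT uses the quinolinic acid that follows to make the mononucleotide from which NAD is built. Kynurenine and kynurenic acid are also known as ligands of the aryl hydrocarbon receptor.

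The promoters of the 4 members with the most reads are shown. Of these, KYNU and QPRT were nearly silent in shEmpty cells, and AADAT and AFMID were expressed in all 3 lines. They were chosen for printing with their CG pairs known, so the difference in CG pairs is a description. A link between CG pairs and expression was not tested. From RefSeq (GRCh38.p14), 9 promoters of 6 of the 7 members were used, and IDO1 was left out of this step. Each runs from 250 bases before to 50 bases after a transcript start. The first promoter listed per gene is printed 5′ to 3′ on the gene's strand, with CG pairs in capitals.
KYNU promoter, chr2:142877414-142877713, plus strand: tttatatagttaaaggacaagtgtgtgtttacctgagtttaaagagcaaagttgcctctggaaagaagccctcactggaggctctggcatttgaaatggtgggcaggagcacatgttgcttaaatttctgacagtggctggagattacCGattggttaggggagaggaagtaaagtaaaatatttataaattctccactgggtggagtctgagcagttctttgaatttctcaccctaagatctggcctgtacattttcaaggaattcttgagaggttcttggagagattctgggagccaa
QPRT promoter, chr16:29678930-29679229, plus strand: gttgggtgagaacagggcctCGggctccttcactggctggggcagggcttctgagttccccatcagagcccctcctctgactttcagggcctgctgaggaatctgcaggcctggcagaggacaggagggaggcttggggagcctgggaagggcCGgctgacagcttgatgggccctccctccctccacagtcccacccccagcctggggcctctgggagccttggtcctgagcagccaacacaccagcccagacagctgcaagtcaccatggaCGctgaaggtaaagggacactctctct
AADAT promoter, chr4:170090338-170090637, minus strand: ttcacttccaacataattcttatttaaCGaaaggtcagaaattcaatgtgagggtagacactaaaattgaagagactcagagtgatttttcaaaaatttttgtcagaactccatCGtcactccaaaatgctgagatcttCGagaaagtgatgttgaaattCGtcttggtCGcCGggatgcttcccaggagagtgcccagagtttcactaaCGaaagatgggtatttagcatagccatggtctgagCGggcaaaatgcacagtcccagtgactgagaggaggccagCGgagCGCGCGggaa
AFMID promoter, chr17:78187112-78187411, plus strand: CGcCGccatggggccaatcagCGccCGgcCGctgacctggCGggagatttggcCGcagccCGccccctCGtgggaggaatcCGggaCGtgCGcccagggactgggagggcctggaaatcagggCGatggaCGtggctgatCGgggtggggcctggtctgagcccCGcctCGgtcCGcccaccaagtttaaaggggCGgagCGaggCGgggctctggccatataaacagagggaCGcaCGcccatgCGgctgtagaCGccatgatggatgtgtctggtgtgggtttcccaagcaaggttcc
The KYNU promoter held 1 CG pair and the QPRT promoter 3, against 12 in the AADAT promoter and 25 in that of AFMID. Over all 35116 RefSeq promoters of this length the median was 14, with quartiles of 4 and 28. The promoters of KMO and TDO2, which had few reads in every library, held 1 CG pair each. The second QPRT promoter held 1, and the other AADAT promoters held 22 and 44. Which of the annotated starts these cells use is not known from gene counts. Of 6 short motifs searched on both strands, CATGTG, an E-box form known to bind MITF, was present in the KYNU promoter (bases 110 to 115, minus strand) and in the second QPRT promoter (bases 119 to 124, minus strand), and in 11.1% of all promoters. The interferon gamma activated site TTCNNNGAA matched the KYNU promoter at bases 217 to 225 and 256 to 264, against 7.66% of all promoters with at least 1 match. GCGTG, the core of the aryl hydrocarbon receptor element, was in the AFMID promoter and in the third AADAT promoter (36.5% of all), and the AP-1 site TGANTCA was in the TDO2 promoter (7.71% of all). The E-box CACGTG (7.26% of all) and the interferon-stimulated response element (3.57% of all) had no match in these 9 promoters, which leave out IDO1. These matches describe letters in a window and not binding.

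The libraries held 18456328 assigned reads in shPRAME, 14181829 in shBAP1 and 19430130 in shEmpty cells, and levels are given as CPM, read counts brought to a common library size after TMM scaling, which adjusts that size for a few very abundant genes. A count of 3 reads corresponded to 0.164, 0.202 and 0.160 CPM in shPRAME, shBAP1 and shEmpty cells. Genes with a mean of at least 50 reads over the libraries (11956) are called measured, and a measured gene is called higher or lower when its ratio is at least 2-fold and the exact 95% interval of the ratio leaves out no change. Intervals cover counting error only. The hairpins' targets were low in their own lines: PRAME was at 107.5 CPM in shPRAME cells, 454.5 CPM in shBAP1 cells and 327 CPM in shEmpty cells, and BAP1 was at 97.9, 35.2 and 100.0 CPM in the same order. PRAME in shPRAME cells was thus at 32.9% of its shEmpty level, and BAP1 in shBAP1 cells at 35.2%.

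KYNU and QPRT, which act late in the pathway, had 1023 and 299 reads in shBAP1 cells, against at most 31 reads in shPRAME and 8 in shEmpty cells. AADAT and AFMID were present in all 3 lines, and neither gene differed by more than 2.10-fold between any pair of lines. KMO, IDO1 and TDO2 never passed 40 reads. Of the 7 members, 4 were measured; KYNU and QPRT passed the minimum only through shBAP1 cells. The number of measured members called is therefore a description: 1 (KYNU) was higher in shPRAME than in shEmpty cells, where 10.2% of all measured genes were higher and 19.3% were called in either direction. In shBAP1 cells 2 (KYNU and QPRT) were higher than in shEmpty cells, where 5.53% of all measured genes were higher and 14.1% were called.

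**Figure D1:**
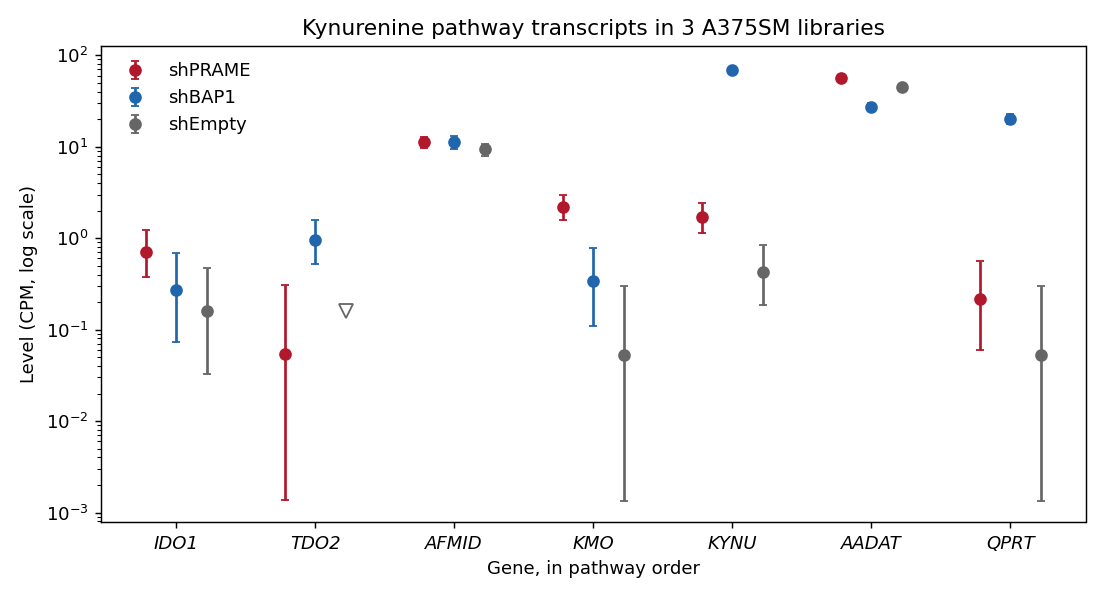
Level of each pathway gene in CPM (log scale) in the shPRAME, shBAP1 and shEmpty libraries, genes in pathway order; each point is 1 library and its bar the exact Poisson 95% interval. KYNU and QPRT stand at 68.9 and 20.1 CPM in shBAP1 cells and below 2 CPM in the other libraries, while AFMID lies between 9.34 and 11.2 CPM in all 3.

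The dioxygenases that start the pathway were near the limit of counting. IDO1 had 13 reads in shPRAME cells, 4 in shBAP1 cells and 3 in shEmpty cells, which is 0.711, 0.269 and 0.160 CPM. The IDO1 level in shPRAME cells was 4.44 times that in shEmpty cells, with a 95% interval from 1.22 to 24.3, and the ratio of shBAP1 to shEmpty cells, 1.68, had an interval from 0.285 to 11.5 that held no change. TDO2 had 1 read in shPRAME cells, 14 in shBAP1 cells and 0 in shEmpty cells. Its level in shBAP1 cells was 0.943 CPM (0.516 to 1.58). This was 5.89 times a floor of 3 reads in the shEmpty library. The exact 95% interval of the ratio from 14 reads against 0, which covers counting error only, reached down to 4.19-fold. No ratio is given for TDO2 between shPRAME and shEmpty cells, since both lie under the floor. Neither gene was measured, so neither was called.

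AFMID, the formamidase of the second step, had the ratios nearest to no change among the measured members in both comparisons with shEmpty cells. It had 204 reads in shPRAME cells, 165 in shBAP1 cells and 175 in shEmpty cells, or 11.2, 11.1 and 9.34 CPM. Its ratio to shEmpty cells was 1.19 (0.971 to 1.47) in shPRAME cells and 1.19 (0.956 to 1.48) in shBAP1 cells, and both intervals held no change. An interval of this width leaves room for a difference of up to 1.48-fold.

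AADAT, one of the aminotransferases that make kynurenic acid, was the most abundant member per coding length outside shBAP1 cells. It had 1042 reads in shPRAME cells, 403 in shBAP1 cells and 842 in shEmpty cells, or 57.0, 27.1 and 44.9 CPM. Its level in shPRAME cells was 1.27 times that in shEmpty cells (1.16 to 1.39), and in shBAP1 cells it was 60.4% of the shEmpty level (53.5 to 68.1). Both intervals left out no change, and both ratios lay inside the 2-fold limit, so AADAT was called in neither comparison with shEmpty cells.

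KMO, which opens the branch toward quinolinic acid, had 40 reads in shPRAME cells, 5 in shBAP1 cells and 1 in shEmpty cells. Its level was 2.19 CPM (1.56 to 2.98) in shPRAME cells, 0.337 CPM (0.109 to 0.786) in shBAP1 cells and 0.0534 CPM (0.00135 to 0.297) in shEmpty cells. The ratio of shPRAME to shEmpty cells was 41.0 with an interval from 6.95 to 1659, since it rests on 1 read in shEmpty cells, and that of shBAP1 to shEmpty cells was 6.31 (0.706 to 298). KMO was thus highest in shPRAME cells, but it missed the read minimum, with a mean of 15.3 reads. OPN3, an opsin gene, overlaps KMO in the RefSeq gene order and had 680, 676 and 309 reads in shPRAME, shBAP1 and shEmpty cells; whether the counting used strand is not given in the sources used here, so reads of the pair may not be separable.

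KYNU had 31 reads in shPRAME cells, 1023 in shBAP1 cells and 8 in shEmpty cells. This is 1.70 CPM (1.15 to 2.41), 68.9 CPM (64.8 to 73.3) and 0.427 CPM (0.184 to 0.841), and the 3 intervals did not overlap. KYNU was 161-fold higher in shBAP1 than in shEmpty cells (81.6 to 374.9) and ranked 16th from the top of 11948 measured genes with a ratio. KYNU passed the read minimum only through shBAP1 cells, so this rank is a description. In shPRAME cells it was 3.97-fold higher than in shEmpty cells (1.79 to 10.0) and ranked 378th of 11952. The call in shPRAME cells rests on 31 reads against 8, and ended when a pseudocount of 1 CPM was added, which gave a log2 ratio of 0.92 in place of 1.99.

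QPRT had 4 reads in shPRAME cells, 299 in shBAP1 cells and 1 in shEmpty cells. Its level was 20.1 CPM (17.9 to 22.6) in shBAP1 cells, against 0.0534 CPM (0.00135 to 0.297) in shEmpty cells. The ratio of 377 had an interval from 67.2 to 14955 because it rests on 1 read in shEmpty cells. QPRT ranked 4th from the top of the same 11948 genes. This rank is also a description, since QPRT passed the minimum only through shBAP1 cells. In shPRAME cells its ratio to shEmpty cells was 4.10 (0.406 to 202), and it was not called. HAAO, the enzyme that supplies the precursor of quinolinic acid, had 0 reads in every library, and ACMSD, which diverts that precursor away from quinolinic acid, had 0, 2 and 0 reads in shPRAME, shBAP1 and shEmpty cells.

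**Figure D2:**
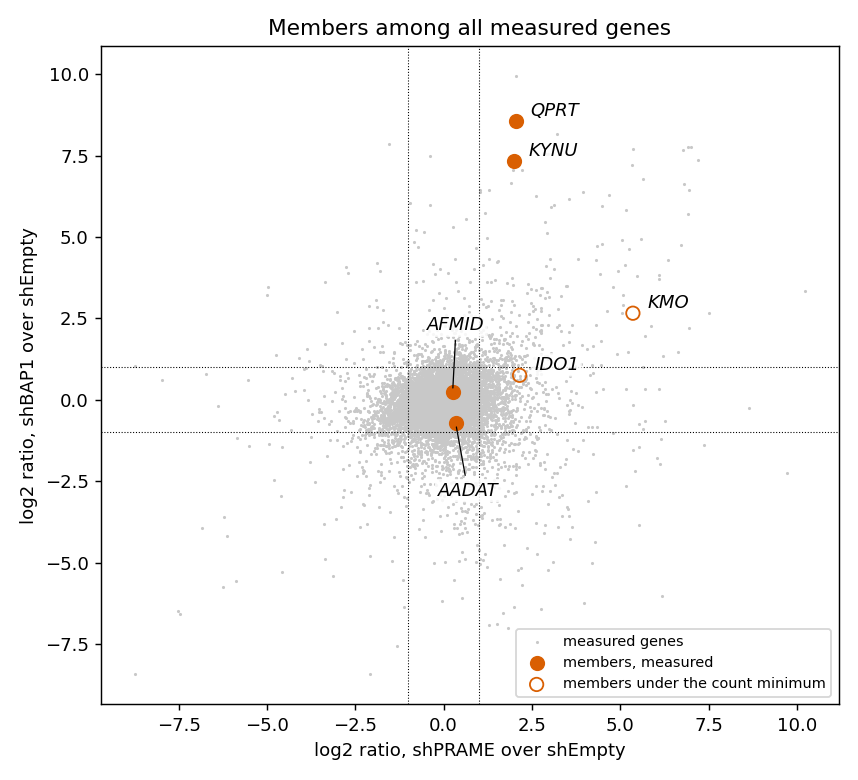
Log2 ratio of shPRAME over shEmpty (x axis) against log2 ratio of shBAP1 over shEmpty (y axis), with grey points for all measured genes and labelled points for members that have both ratios. KYNU (1.99 and 7.33) and QPRT (2.04 and 8.56) lie near the top edge, while AADAT (0.34 and -0.73) and AFMID (0.26 and 0.25) lie within the bulk; the axes share the shEmpty library.

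The direct comparison of the knockdown lines does not use the shEmpty library. Among the measured members, 1 was higher and 2 were lower in shPRAME than in shBAP1 cells, where 14.2% of measured genes were higher and 10.9% lower (25.1% in either direction). KYNU was 40.6-fold lower in shPRAME cells (28.5 to 60.1) and ranked 32nd from the bottom of 11954 genes. QPRT was 92.1-fold lower (35.6 to 340.1) and ranked 17th from the bottom. Both ranks are descriptions, since KYNU and QPRT passed the minimum only through shBAP1 cells. AADAT was 2.10-fold higher in shPRAME cells (1.87 to 2.36), a call that ended when libraries were scaled by their total count (log2 ratio 0.99 in place of 1.07). AFMID differed by less than its counting error, with a ratio of 1.00 (0.814 to 1.24) whose log2 value took either sign depending on the scaling. Of the members below the minimum, KMO was 6.50 times as high in shPRAME as in shBAP1 cells (2.56 to 21.1), IDO1 had a ratio of 2.64 (0.815 to 11.1), and TDO2 was 17.2-fold lower (2.62 to 729) on 1 read against 14.

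Levels of different genes were compared per kilobase of coding length, from 891 bases for QPRT to 1458 for KMO. In shPRAME cells AADAT stood first at 44.3 CPM per kilobase, before AFMID at 12.1, KMO at 1.5, KYNU at 1.22, IDO1 at 0.588, QPRT at 0.246 and TDO2 at 0.0449. In shBAP1 cells KYNU stood first at 49.4 CPM per kilobase, before QPRT at 22.6, AADAT at 21.1, AFMID at 12.0, TDO2 at 0.774, KMO at 0.231 and IDO1 at 0.223. In shEmpty cells the order was AADAT at 34.9 CPM per kilobase, AFMID at 10.1, KYNU at 0.306, IDO1 at 0.132, QPRT at 0.0599, KMO at 0.0366 and TDO2 at 0. AADAT and AFMID kept separate intervals in each line, as did KYNU against both in shBAP1 cells. QPRT and AADAT were not distinguishable in shBAP1 cells. The intervals of neighbours in the order overlapped from the third place down in shPRAME and shEmpty cells. In shBAP1 cells they overlapped from the fifth place down. Overlap of separate intervals does not show that the levels were the same. Per coding length, KYNU was 2.34 times AADAT in shBAP1 cells (2.08 to 2.63), whereas AADAT was 36.4 times KYNU in shPRAME cells (25.5 to 53.9) and 114 times KYNU in shEmpty cells (57.6 to 265). The order depends on the length chosen: with the merged length of all annotated exons, which for KYNU is 16486 bases, KYNU came 4th in shBAP1 cells at 4.18 CPM per kilobase, after AADAT at 10.8, QPRT at 8.60 and AFMID at 5.12. AADAT was then 220.4 times KYNU in shPRAME cells, 2.58 times in shBAP1 cells and 690.2 times in shEmpty cells.

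The measured genes whose pattern was most like a member's were found by distance in the plane of the log2 ratios to shEmpty cells, over 3 libraries. NGFR, the low-affinity nerve growth factor receptor, was nearest to KYNU at a distance of 0.27, with 34 reads in shPRAME cells, 953 in shBAP1 cells and 9 in shEmpty cells. MAGEB2, a cancer-testis antigen, followed at 0.36 with 9, 209 and 2 reads, and the zinc finger gene ZNF208 at 0.70 with 62, 1346 and 17 reads. Only 6 measured genes lay within a distance of 1 from KYNU. None lay as near to QPRT, whose closest genes were FSTL5 at 1.01 (20, 554 and 0 reads), KYNU itself at 1.23 and PPP4R3CP at 1.24 (9, 225 and 1 reads). FSTL5 had 0 reads in shEmpty cells and was placed with the floor of 3 reads there. Its ratios are therefore bounds, and its distance and rank are not exact. The genes named for KYNU and QPRT passed the read minimum only through shBAP1 cells, as both members did. The number of near genes thus depends on that minimum. Counting error was wider than these distances. The interval of the log2 ratio of shPRAME to shEmpty cells ran from 0.84 to 3.32 for KYNU. For QPRT it ran from -1.30 to 7.66. The order and number of near genes are therefore a description. AADAT had 4857 measured genes within a distance of 1, so the nearest ones, EVL, TMEM65 and CBX5 at 0.03 to 0.04, single out no pattern.

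The genes next to the members on the chromosome were read from the RefSeq gene order, 2 on each side, and 11 of these 28 neighbours were measured. Between shPRAME and shEmpty cells 2 were called higher and 2 lower, and between shBAP1 and shEmpty cells 2 higher and 1 lower, where 19.3% and 14.1% of all measured genes were called. ARHGAP15, a gene beside KYNU, had 2 reads in shPRAME cells, 87 in shBAP1 cells and 3 in shEmpty cells and missed the minimum. GTDC1, one gene further, had 176, 218 and 205 reads and was called in neither comparison, and LRP1B on the other side of KYNU had 0, 6 and 0 reads. Beside QPRT, SPN had 5, 13 and 2 reads and C16orf54 had 1, 0 and 1 reads in shPRAME, shBAP1 and shEmpty cells. Of the neighbours of KYNU and QPRT only GTDC1 was measured, so the calls cannot show whether genes beside these members changed too. The called neighbours lay beside KMO, TDO2 and AFMID, of which KMO and TDO2 missed the minimum themselves. OPN3 at KMO and the growth factor gene PDGFC at TDO2 were higher in both knockdown lines. Their log2 ratios were 1.17 and 2.97 in shPRAME cells and 1.47 and 2.59 in shBAP1 cells. The thymidine kinase gene TK1 at AFMID was lower in both (-1.31 and -1.37), and the mitotic gene BIRC5 on its other side was called lower in shPRAME cells (-1.64) but not in shBAP1 cells (-0.62). IDO2, the paralog that neighbours IDO1, had 0 reads in every library.

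The rest of the pathway was described from a list of 7 other kynurenine enzymes, of which 3 were measured. Of these, 0 were called against shEmpty cells in either knockdown line. Over all measured genes 19.3% were called in shPRAME and 14.1% in shBAP1 cells, and 3 genes are too few to compare with these shares. The 3 measured enzymes are aminotransferases that, like AADAT, can make kynurenic acid. CCBL2 (KYAT3) had 347 reads in shPRAME cells, 129 in shBAP1 cells and 297 in shEmpty cells, and its level in shBAP1 cells was 1.82-fold under that of shEmpty cells (1.48 to 2.26). CCBL1 (KYAT1) had 83, 77 and 72 reads, and GOT2, the mitochondrial aspartate aminotransferase, 1769, 3102 and 2308 reads. Between the knockdown lines CCBL2 was called higher in shPRAME cells (2.18-fold) and GOT2 lower (2.16-fold), where 25.1% of all measured genes were called. CCBL2 shares its locus with the retrocopy RBMXL1, so its reads are uncertain. The median log2 ratio of the 3 was 0.24 in shPRAME and 0.43 in shBAP1 cells, beside -0.06 and -0.03 over all measured genes.

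NAD, the end product of the branch through QPRT, is also made from nicotinamide and nicotinic acid. Of 10 genes for these routes 6 were measured, and 0 were called in shPRAME cells and 1, lower, in shBAP1 cells, where 8.56% of all measured genes were lower. That gene was NAPRT, the first enzyme of the nicotinic acid route, which had 583 reads in shPRAME cells, 185 in shBAP1 cells and 647 in shEmpty cells and was 2.77-fold lower in shBAP1 cells (2.35 to 3.28). NAMPT, the rate-limiting enzyme of the nicotinamide route, was at 152.7 CPM in shPRAME cells, 243.8 CPM in shBAP1 cells and 161.2 CPM in shEmpty cells, and its ratio of 1.51 in shBAP1 cells was not called. Among 10 genes that use NAD or clear nicotinamide, 9 were measured, and 1 was called higher and 1 lower in shBAP1 cells, where 14.1% of all measured genes were called. NNMT, which methylates nicotinamide, had 48 reads in shPRAME cells, 527 in shBAP1 cells and 45 in shEmpty cells and was 14.8-fold higher in shBAP1 cells (10.9 to 20.5). NNMT passed the read minimum only through shBAP1 cells, so its call is a description. BST1, an ADP-ribosyl cyclase, had 321, 98 and 327 reads and was 2.64-fold lower there. None of the 9 was called in shPRAME cells, where 19.3% of all measured genes were called. PARP1 and PARP2 had log2 ratios of -0.86 and -0.91 there.

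Tryptophan supply and its other uses were described by 15 genes, of which 8 were measured. In shPRAME cells 1 was higher and 4 were lower than in shEmpty cells, where 9.08% of all measured genes were lower, and the median log2 ratio was -0.86. SLC7A5, the large neutral amino acid transporter that carries tryptophan, had 2040 reads in shPRAME cells, 2971 in shBAP1 cells and 6703 in shEmpty cells and was 3.21-fold lower in shPRAME cells (3.05 to 3.37). Its partner chain SLC3A2 was 2.31-fold lower, the glutamine transporter SLC1A5 2.06-fold lower and the tryptophanyl-tRNA synthetase WARS 2.43-fold lower in shPRAME cells, and the SLC1A5 call ended with upper-quartile scaling. In shBAP1 cells 1 was higher and 2 were lower (8.56% of all measured genes were lower), with a median of -0.67: WARS was 2.65-fold and the transporter SLC7A8 3.32-fold lower, while SLC7A5 had a log2 ratio of -0.84 and was not called. MAOA, the monoamine oxidase that degrades serotonin, was higher in both lines, with 79 reads in shPRAME cells, 159 in shBAP1 cells and 10 in shEmpty cells, which is 8.10-fold (4.18 to 17.5) and 20.1-fold (10.6 to 42.7). MAOA passed the read minimum only through its reads in the knockdown lines, so these calls are descriptions.

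The aryl hydrocarbon receptor, the sensor of kynurenine, and its partners and targets made up 12 genes with 8 measured. AHR itself was at 754.6 CPM in shPRAME cells, 416.3 CPM in shBAP1 cells and 235.4 CPM in shEmpty cells; it was 3.21-fold higher in shPRAME cells (3.10 to 3.32) and its ratio of 1.77 in shBAP1 cells was not called. In shPRAME cells 1 of the 8 was higher and 1 lower, and in shBAP1 cells 0 were higher and 3 lower, beside 19.3% of all measured genes called in shPRAME cells and 8.56% lower in shBAP1 cells. The classical target CYP1A1 had 121 reads in shPRAME cells, 126 in shBAP1 cells and 148 in shEmpty cells and was not called, and CYP1B1 missed the minimum with 40, 20 and 9 reads. The lower genes in shBAP1 cells included the repressor AHRR (log2 ratio -1.01) and the cystine transporter SLC7A11 (-1.26). Only 1 of the 3 was called when libraries were scaled by total count. SLC7A11, which is better known as a target of NRF2 and ATF4, was also the lower gene in shPRAME cells, by 6.18-fold.

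Of 18 genes for interferon gamma signalling and the control of IDO1, 14 were measured, with 4 higher and 0 lower in shPRAME cells and 0 higher and 4 lower in shBAP1 cells. Over all measured genes 10.2% were higher and 9.08% lower in shPRAME cells, and 5.53% higher and 8.56% lower in shBAP1 cells. The median log2 ratio was 0.46 in shPRAME and -0.45 in shBAP1 cells. The genes that moved were not those of interferon signalling alone. The prostaglandin synthases PTGES and PTGS2 and the cytokine TGFB1 were each higher in shPRAME and lower in shBAP1 cells than in shEmpty cells: PTGES had 2618, 9 and 581 reads, PTGS2 994, 29 and 346 reads, and TGFB1 4413, 346 and 1128 reads in shPRAME, shBAP1 and shEmpty cells. For PTGES this was 4.62-fold higher in shPRAME cells and 51.1-fold lower in shBAP1 cells (26.8 to 112). The signalling inhibitor SOCS3 was 3.40-fold higher in shPRAME cells and the kinase JAK2 2.02-fold lower in shBAP1 cells, a call that ended with total-count scaling. IFNG had 0 reads in every library, and the interferon factor IRF1 (5.52 CPM in shPRAME cells, 5.73 in shBAP1 cells and 7.95 in shEmpty cells) was called in neither comparison. Of 8 receptors for kynurenic acid, quinolinic acid and related compounds 0 were measured. Of 7 genes that supply pyridoxal phosphate and flavin, cofactors of KYNU, AADAT and KMO, 6 were measured and 0 were called against shEmpty cells in either line, with a median log2 ratio of -0.32 in shPRAME and -0.23 in shBAP1 cells.

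Between the knockdown lines, PTGES was 236-fold (124 to 517), PTGS2 27.8-fold and TGFB1 10.4-fold higher in shPRAME than in shBAP1 cells, and 7 of the 14 measured genes of that list were higher and 0 lower, where 14.2% of all measured genes were higher and 10.9% lower. The 7 became 4 with total-count scaling, with a 3-fold limit, or where the whole interval had to lie beyond 2-fold. NNMT was 13.5-fold lower in shPRAME than in shBAP1 cells (10.1 to 18.6), whereas NAPRT was 2.56-fold and BST1 2.66-fold higher. Of the tryptophan genes SLC7A8 was 4.28-fold higher and MAOA 2.48-fold lower. The median log2 ratio was 1.00 for interferon gamma signalling and IDO1 control, 0.36 for the aryl hydrocarbon receptor genes and -0.45 for the tryptophan genes, beside -0.06 over all measured genes.

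**Figure D3:**
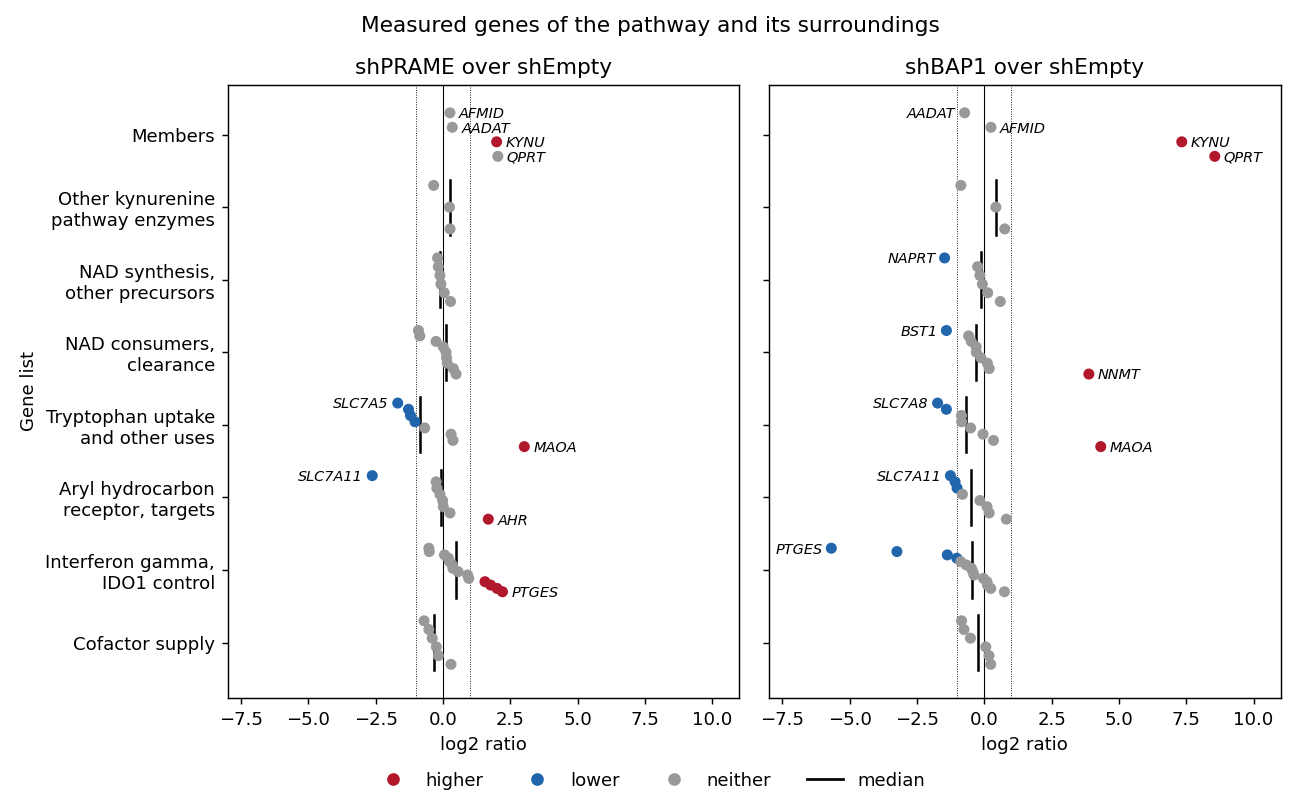
Log2 ratio of each measured gene in the pathway list and the surrounding lists, for shPRAME over shEmpty and shBAP1 over shEmpty; each point is 1 gene and the bar is the list's median, drawn for the surrounding lists. The genes of interferon gamma signalling and IDO1 control have a median of 0.46 in shPRAME and -0.45 in shBAP1 cells. In shBAP1 cells NNMT at 3.89 stands apart from the other genes that use NAD or clear nicotinamide.

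Markers of cell identity were set beside these values. The melanocyte transcription factor SOX10 had 12019 reads in shPRAME cells, 5442 in shBAP1 cells and 9482 in shEmpty cells, and MITF had 2088, 3543 and 5807 reads. The pigment enzymes were highest in shBAP1 cells, the library where KYNU and QPRT were high. TYR had 0, 573 and 4 reads, TYRP1 1, 1037 and 0 reads and DCT 6, 1668 and 192 reads in shPRAME, shBAP1 and shEmpty cells. Of the other melanocyte genes, S100B was also highest there (790, 2768 and 1356 reads). S100A1 (7406, 1833 and 3664 reads) and SOX10 were lowest there. PMEL (8, 34 and 6 reads) and MLANA (7, 19 and 3 reads) had few reads in every library. Of the 10 melanocyte genes 8 were measured, and 4 were called higher and 0 lower in shBAP1 than in shEmpty cells. Over all measured genes 5.53% were higher and 8.56% lower. TYR and TYRP1, which are among those called, passed the read minimum only through shBAP1 cells, so the number called is a description. The 10 melanocyte genes, which include PRAME, summed to 1329, 1594 and 1422 CPM in shPRAME, shBAP1 and shEmpty cells, and without PRAME to 1221, 1139.5 and 1095 CPM. Macrophages and hepatocytes are other known sources of these enzymes. The 10 macrophage and dendritic cell genes summed to 161 CPM in shPRAME cells, 66.3 CPM in shBAP1 cells and 55.2 CPM in shEmpty cells, and without CD68 to 16.8, 4.58 and 6.19 CPM, with CD163 and TYROBP at 0 throughout. The 8 hepatocyte genes summed to 3.17, 14.7 and 2.03 CPM, with ALB and APOB at 0 throughout, and CPS1 gave 209 of the 218 reads in shBAP1 cells. The 9 fibroblast genes summed to 748.8 CPM in shPRAME cells, 217 CPM in shBAP1 cells and 48.9 CPM in shEmpty cells, of which COL1A2 gave 12250 reads in shPRAME cells. The keratinocyte genes summed to 28.2, 54.5 and 35.1 CPM, and without KRT10 to 1.20, 1.35 and 1.33 CPM, with KRT1 at 0 throughout. The endothelial genes summed to 51.3, 13.0 and 79.4 CPM, and without KDR to 20.0, 1.55 and 0.640 CPM, with CDH5 at 0 throughout. The part of these genes in the levels of KYNU, QPRT and KMO was not tested.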

How the data were processed

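Each line gave 1 paired-end library (100-base reads) from purified mRNA, made with a directional kit, per the labels' protocols. The authors deposited a matrix of read counts per gene symbol. The submitters' processing notes name FastQC, TopHat, Cufflinks, edgeR and hg19 (GRCh37); the counting tool, its annotation and its use of strand were not given in the sources used here.

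The deposited counts were scaled by TMM (edgeR 4.0.16, R 4.3.3). CPM carry exact Poisson 95% intervals and ratios exact conditional binomial 95% intervals (scipy 1.17.1). With 1 library a group no spread can be estimated, so no test was run. A gene was measured at a mean of 50 reads, called at 2-fold with an interval that left out no change, and a count of 0 was set to a floor of 3 reads. Script steps were checked on simulated counts.

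Coding lengths came from GENCODE 29, and promoters and gene order from RefSeq GRCh38.p14; no coordinates were converted between builds. All 147 member, list, marker and target genes had a row, 3 under an older symbol.

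The members and lists were chosen with earlier results of these data known. Named from each list were up to 4 measured genes with the largest ratios in each comparison with shEmpty, chosen pathway genes, the 3 genes most like each called member, and 2 neighbours on each side. SLC1A5 and IFNG were named outside this rule, after their values were seen. Alternatives in scaling (total count, upper quartile, DESeq2 1.42.0 size factors), read minimum, fold limit, interval rule and pseudocount were tried.
Some genes of the lists are counted but not reported by name here.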

Additional observations from a re-analysis of the deposited data

How the results depend on the processing

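No paired analysis was possible because each group has 1 library. Of 200 log2 ratios of members under the alternatives, 184 kept their direction and their side of the call, and 0 changed sign on a called value. Much of this is set by construction. The read minimums, fold limits and interval rule leave the ratio as it is, so under them only the call could change. KMO, IDO1 and TDO2 could be called only where the read minimum was lowered. The number of members called between shPRAME and shEmpty cells, 1, became 2 with a read minimum of 10, 3 with no minimum, and 0 with a pseudocount of 1 CPM or where the whole interval had to lie beyond 2-fold. Between shBAP1 and shEmpty cells 2 members were called, 1 with a minimum of 200 reads and 3 with no minimum or at a 1.5-fold limit. Between shPRAME and shBAP1 cells 3 were called, 4 with a minimum of 10, 5 with no minimum, and 2 with total-count scaling, a minimum of 200, a 3-fold limit or the whole interval. Over all genes, those called between shPRAME and shEmpty cells numbered 2311, against 1534 with a minimum of 200, 3774 with none, 4903 at a 1.5-fold limit and 991 at a 3-fold limit. Between shBAP1 and shEmpty cells they numbered 1685, against 2543 with a minimum of 10, 1008 with 200, 3016 with none, 3645 at 1.5-fold, 778 at 3-fold and 1098 by the whole interval. Between shPRAME and shBAP1 cells they numbered 3006, against 4727 with no minimum, 5749 at 1.5-fold and 1361 at 3-fold. Each of these settings changes which genes are counted by its construction. Scaling by total count moved the median of all genes between shBAP1 and shEmpty cells by 0.12 on the log2 scale and the share of calls that were higher to 49.8% in place of 39.2%. Of 240 counts of list genes called, 198 stayed within 1.5 times and 42 did not. Depth limits KMO, IDO1 and TDO2 in every library, and KYNU and QPRT in shPRAME and shEmpty cells, where single reads set the ratios.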
